A study of Rattus norvegicus with 22 samples.

Results

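Collagens, laminins and the proteins that process collagen were followed in rat spinal cord through laminectomy, contusion and 5 treatments of the contused cord. The genes were taken by symbol from a genome-wide Affymetrix expression array: every collagen chain, every laminin chain, and Lox, Loxl1, Loxl2, Fn1, Dcn, Lum, Bgn, Sparc, Serpinh1, P4ha1, Plod1 and Plod2. This gave 63 genes of 14217 with a single symbol on the array, measured by 88 probe sets. Where a gene had several probe sets (21 of the 63 genes), the one with the highest mean log2 signal stood for it. By role there were 11 fibrillar collagen chains, 5 basement membrane (type IV) chains, 5 beaded filament (type VI) chains, 20 other collagen chains, 10 laminin chains, 5 glycoproteins and proteoglycans, and 7 enzymes or chaperones.

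The study used 22 arrays in 8 groups. Normal cord (3 arrays) and cord after laminectomy alone (3 arrays) were the uninjured groups. In the other 6 groups a 10 g rod with a tip of 2.5 mm was dropped from 25 mm onto the exposed cord at thoracic level 10, and tissue was taken 24 h later. These were contusion alone (2 arrays), clenbuterol at 150 mg/kg (2 arrays), X-ray at 10 Gy (3 arrays), tempol at 275 mg/kg (3 arrays), buthionine sulfoximine (BSO) at 150 mg/kg (3 arrays), and tempol with BSO (3 arrays). Clenbuterol, X-ray and tempol were given 20 min after injury, and BSO was injected 24 h before it. Clenbuterol is an agonist of the beta-2 adrenergic receptor, tempol is a nitroxide that scavenges superoxide, and BSO blocks the synthesis of glutathione. The labels give no strain, sex or age, and no collection time for normal and laminectomy cord. They also leave unsaid whether the arrays of a group came from separate animals, so every p-value reflects only how far these particular samples spread, which may be technical.

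Collagens are trimers of alpha chains. Their chains are hydroxylated on proline by P4ha1 and on lysine by Plod1 and Plod2, folded with the help of the chaperone Serpinh1 (Hsp47), and, once secreted, cross-linked by lysyl oxidases of the Lox family. Laminins are trimers of an alpha, a beta and a gamma chain, and with type IV collagen they form the basement membranes of blood vessels and of the glial border. In the healthy cord, fibrillar collagen is found mainly in the meninges and around vessels, and after a penetrating or contusive injury fibroblasts can deposit it in a scar.

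Promoters from RefSeq (build GRCr8) were at hand for 48 of the 63 genes. The 250 bases before the start of Plod2 are shown because Plod2 was among the genes with the smallest p in the contused cord and encodes an enzyme known to be induced by hypoxia. They lie at chr8:101964068-101964317 on the plus strand, and capitals mark ACGTG, the core of the hypoxia response element, on either strand (CACGT on the other).
Plod2: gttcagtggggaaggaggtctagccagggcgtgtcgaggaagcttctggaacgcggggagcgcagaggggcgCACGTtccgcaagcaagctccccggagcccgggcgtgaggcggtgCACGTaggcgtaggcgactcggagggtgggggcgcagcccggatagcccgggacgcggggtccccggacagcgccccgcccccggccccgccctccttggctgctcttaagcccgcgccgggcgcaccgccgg
The stretch held 2 matches. The 250 bases before the P4ha1 start that was used (chr20:27844796-27845045) held 0. They lie inside the P4ha1 gene (27784696 to 27895785), so this does not compare 2 stretches at the outer gene start. ACGTG or its reverse occurred in 16.9% of 27457 rat promoters of this length and in 4 of the 48 (8.33%), namely Plod2, Col4a5, Col26a1 and Lamc3. The second stretch lies between the starts of Col4a2 (minus strand) and Col4a1 (plus strand), which are transcribed away from each other, at chr16:84885521-84885596, printed on the plus strand. Capitals mark the GC box GGGCGG, here as its reverse CCGCCC.
Col4a1 and Col4a2: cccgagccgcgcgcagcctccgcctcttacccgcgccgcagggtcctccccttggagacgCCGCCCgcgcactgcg
CCAAT (reverse ATTGG) was searched first and had 0 matches in these 76 bases, and the GC box was chosen after the sequence had been seen. CCAAT occurred in 34.3% of all promoters and in 12 of the 48 (25%), and the GC box in 32.4% and in 26 of the 48 (54.2%). In all 3 motifs were searched. A match is a description of letters and not a binding site.

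The trimmed mean signal was 250 on every array, and the correlation of an array with the others had a median of 0.725 to 0.785 except for laminectomy 2 (0.667) and normal 1 (0.685), which stood apart. For the genes with the smallest p in each comparison or role, values that moved by over 1.5 times when both arrays, or any single array, were left out are given beside the result. Mbp, Gfap and Snap25, which mark oligodendrocytes, astrocytes and neurons, were measured on all 22 arrays, with signals of 19106 to 84707, 8054 to 45856 and 870.2 to 8666. Of the 63 genes, 61 had a signal of at least 64 on 2 or more arrays and 34 had it on all 22. Differences below are log2 differences of group means with their standard errors, from 1 limma fit over all arrays, and adjusted p is the Benjamini-Hochberg value over 31042 probe sets. In bulk tissue, fewer cells of a type and less RNA per cell cannot be told apart.

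None of the 63 genes passed an adjusted p of 0.05 in any of the 12 tests. In the broadest one, 16 contused against 6 uninjured arrays with each group given equal weight, 0.443% of all genes passed. At an unadjusted p under 0.05, 9 of the 63 (14.3%) differed, beside 11.2% of all genes. Of these 9, 7 were higher (11.1%, against 5.5% of all genes) and 2 were lower (3.17%, against 5.67%). The median difference over the 63 genes was 0.09 and 38 of them were higher, beside a median of 0.01 and 50.4% higher over all genes. No gene of the 63 had contused and uninjured arrays that did not overlap, beside 0.183% of all genes. For 21 of the 63 the 95% interval of the difference lay within 1 log2 unit of zero, and for the remaining genes it did not. Within groups, the replicate SD of log2 signal had a median of 0.82 over the 63 genes and ran from 0.33 to 1.74. Without normal 1 the count of 9 was 5 and the median turned to -0.03; without both outlying arrays they were 6 and -0.01.

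Fibronectin (Fn1), a matrix glycoprotein that collagen and integrins bind, had the smallest p. Its signal was 744, 453 and 589.5 in normal cord, 768, 1657 and 1295 after laminectomy and 1630.2 and 1724 after contusion alone. In the 16 contused arrays it ran from 1088 to 2877 (median 1550.4), and in the 6 uninjured arrays from 453 to 1657 (median 756). Every contused array was above all 3 normal arrays, but 2 of the 3 laminectomy arrays lay within the contused range. The difference was 0.93 ± 0.22 (1.91-fold, 95% interval 0.46 to 1.40, limma adjusted p = 0.0956). It was 1.14 with both outlying arrays left out (adjusted p = 0.0716). Under 2 other settings Fn1 passed the threshold: with log2 of signal plus 32 (0.90, adjusted p = 0.0404) and with the mean of a gene's probe sets (0.93, 0.042). Fn1 has 1 probe set, so in the latter its difference was unchanged and fewer features were tested. Lox also passed in the latter (0.97, 0.0429).

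The cross-linking enzymes Loxl2 and Lox came next among the genes with higher signal in contused cord. Loxl2 read 102, 54.5 and 86.3 in normal cord, 206, 80.3 and 119.5 after laminectomy and 233 and 328 after contusion alone, and in the contused arrays from 86.2 to 393 (median 243). The difference was 1.17 ± 0.32 (95% interval 0.51 to 1.83, adjusted p = 0.147). Both contusion arrays were above every uninjured array, and 10 of the 16 contused arrays were above the highest uninjured one. The other Loxl2 probe set gave 0.67 for the same contrast. Lox read 288, 118 and 341 in normal cord, 836, 489 and 648 after laminectomy and 1382 and 708 after contusion alone. Its group mean was lowest in normal cord, and the laminectomy arrays lay within the range of the contused ones, which ran from 306 to 1382 (median 721). The difference was 0.88 ± 0.30 (adjusted p = 0.272), and a second Lox probe set gave 1.05 (adjusted p = 0.0956).

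Plod2, the lysyl hydroxylase of collagen telopeptides, read 319, 529.7 and 673 in normal cord, 824, 492 and 761 after laminectomy and 927 and 1098 after contusion alone. In the treated cords it was 1356, 1664 and 933 with tempol, 1211, 998 and 867 with BSO and 506 and 532 with clenbuterol. The clenbuterol arrays were the lowest of the contused ones, and 11 of the 16 contused arrays were above the highest uninjured one. The difference was 0.61 ± 0.23 (adjusted p = 0.34), and 0.34 without both outlying arrays (0.821). Other enzymes and the chaperone differed less: Plod1, which hydroxylates helical lysines, by -0.42 ± 0.28, P4ha1 by 0.17 ± 0.31 and Serpinh1 by 0.03 ± 0.25. A second, dimmer Serpinh1 probe set (mean log2 signal 5.47, against 10.13) gave 0.83. Over these 7 genes of collagen processing, Loxl1 included, the median was 0.24, with 6 of 7 higher. That median is the difference of Loxl1 itself, which is also among the 6. Loxl1 read 4129 on tempol 2 and 109.3 to 302 on the other 21 arrays, a value singled out after it was seen. The median and the count therefore rest in part on that array.

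**Figure D1:**
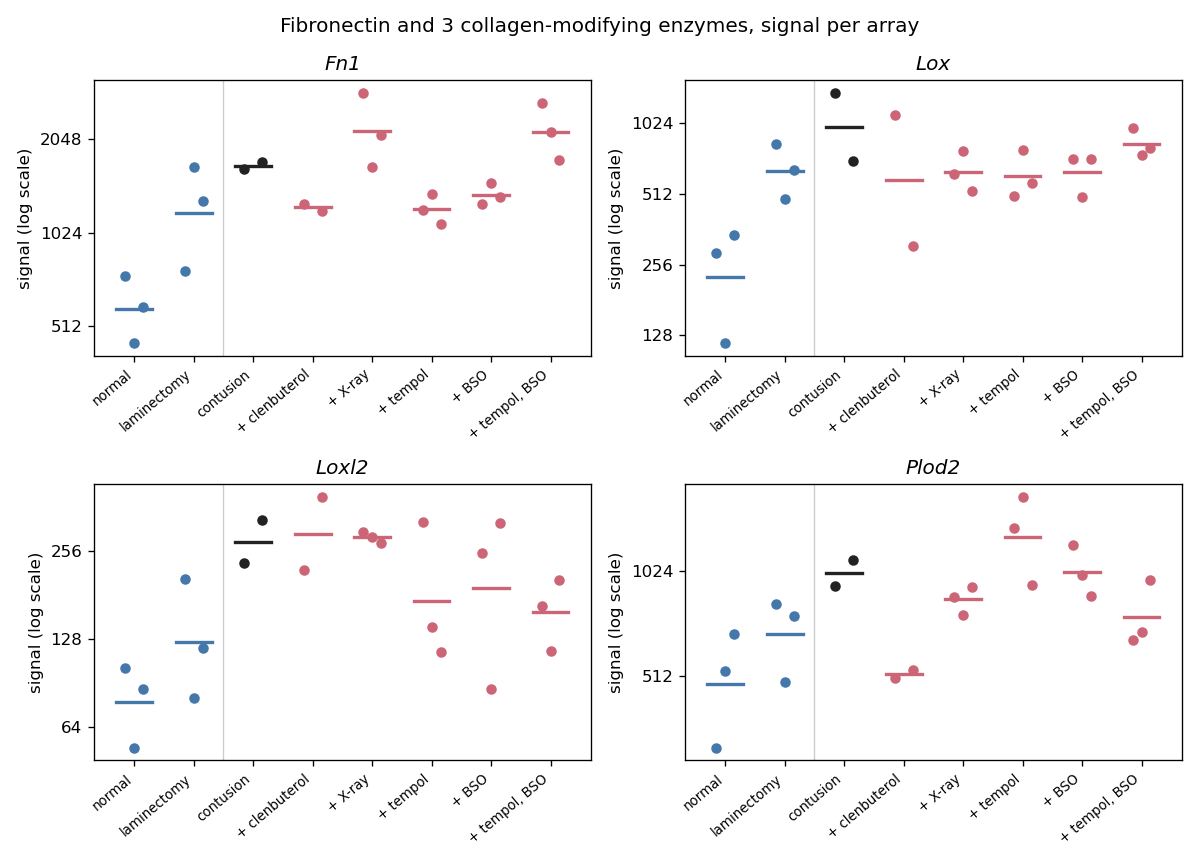
Signal per array (log axis) of Fn1, Lox, Loxl2 and Plod2 in the 8 groups, with a bar at the mean of log2 values; blue marks uninjured cord, black contusion alone and red treated contused cord. Normal cord holds the lowest group mean for Fn1 (signals 453 to 744), Lox (118 to 341), Loxl2 and Plod2. For Fn1 2 of the 3 laminectomy arrays and for Lox all 3 lie within the contused range.

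The 11 fibrillar collagen chains had differences between -0.43 and 0.28 in contused against uninjured cord. Col1a1 and Col1a2, the chains of type I collagen, differed by 0.00 ± 0.27 (95% interval -0.57 to 0.57) and -0.43 ± 0.31 (-1.08 to 0.22), and Col3a1, the chain of type III collagen, by -0.38 ± 0.23 (-0.86 to 0.10). Col1a1 read 392, 489 and 498 in normal cord, 801, 691 and 554 after laminectomy and 600.1 and 646 after contusion alone, and the laminectomy arrays were all above normal. Col3a1 read 939.5, 720.0 and 512 in normal cord, 898, 1507 and 871 after laminectomy and 718 and 566 after contusion alone, and the contusion arrays were below all laminectomy arrays. Without both outlying arrays the Col3a1 difference was -0.15 (adjusted p = 0.941; -0.25 without laminectomy 2 alone), and without clenbuterol 1 that of Col1a2 was -0.28. Over the 11 chains the median difference was -0.08, with 5 of 11 higher. A second Col1a1 probe set gave -0.63 and a second Col1a2 probe set 0.11, so probe sets of a chain did not have the same sign. Of the 21 genes with several probe sets, 11 had probe sets of both signs in this contrast.

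**Figure D2:**
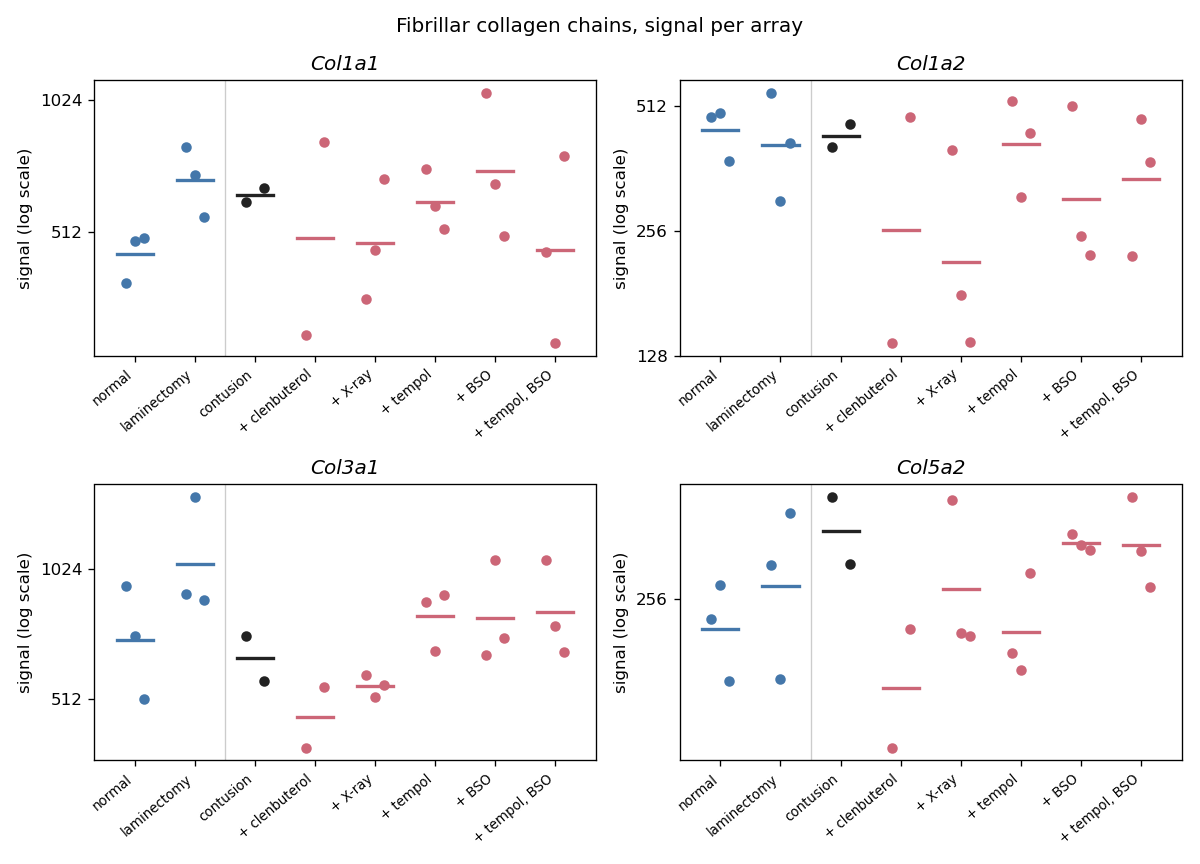
Signal per array (log axis) of Col1a1, Col1a2, Col3a1 and Col5a2 in the 8 groups, coloured as uninjured (blue), contusion alone (black) and treated (red), with a bar at the mean of log2 values. Contused and uninjured arrays overlap for all 4 chains, and Col1a1 runs from 286 to 1065 in contused cord and from 392 to 801 in uninjured cord.

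Among the basement membrane chains, Col4a5 differed by -0.49 ± 0.26 and Col4a6 by -0.69 ± 0.48, with adjusted p of 0.531 and 0.647. Col4a6 was -0.18 without both outlying arrays, -0.37 without normal 1 and -0.44 without clenbuterol 2. Col4a1 and Col4a2, the chains of the vascular form whose genes share the stretch shown above, differed by 0.13 ± 0.43 (95% interval -0.78 to 1.04) and 0.22 ± 0.37 (-0.55 to 1.00). Laminin alpha-2 (Lama2), the chain of muscle and Schwann cell basement membranes, read 49.1, 85.7 and 77.0 in normal cord, 98.5, 31.3 and 146 after laminectomy and 107 and 631 after contusion. The treated arrays ran from 42.0 on tempol 3 to 697 on BSO 1, so replicates differed widely. Its difference was 1.27 ± 0.52 (adjusted p = 0.382), and that of Lamc3, a gamma chain, was 1.15 ± 0.67 (0.575). Without both outlying arrays they were 0.82 and 0.66 (adjusted p 0.829 and 0.91), and Lamc3 was 0.74 without laminectomy 2 alone. Lamc1, the common gamma chain, differed by 0.33 ± 0.23 (95% interval -0.14 to 0.80), and 6 of the 10 laminin chains were higher. The type VI chains Col6a1 and Col6a5 differed by 0.33 ± 0.40 and -0.33 ± 0.33. Col6a1 ranged from 0.12 (without laminectomy 1) to 0.53 (without normal 3), with 0.18 without normal 2. Col6a5 ranged from -0.53 (without clenbuterol 1) to -0.14 (without clenbuterol 2), with -0.17 without laminectomy 1. The median over 5 type VI chains was 0.02.

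**Figure D3:**
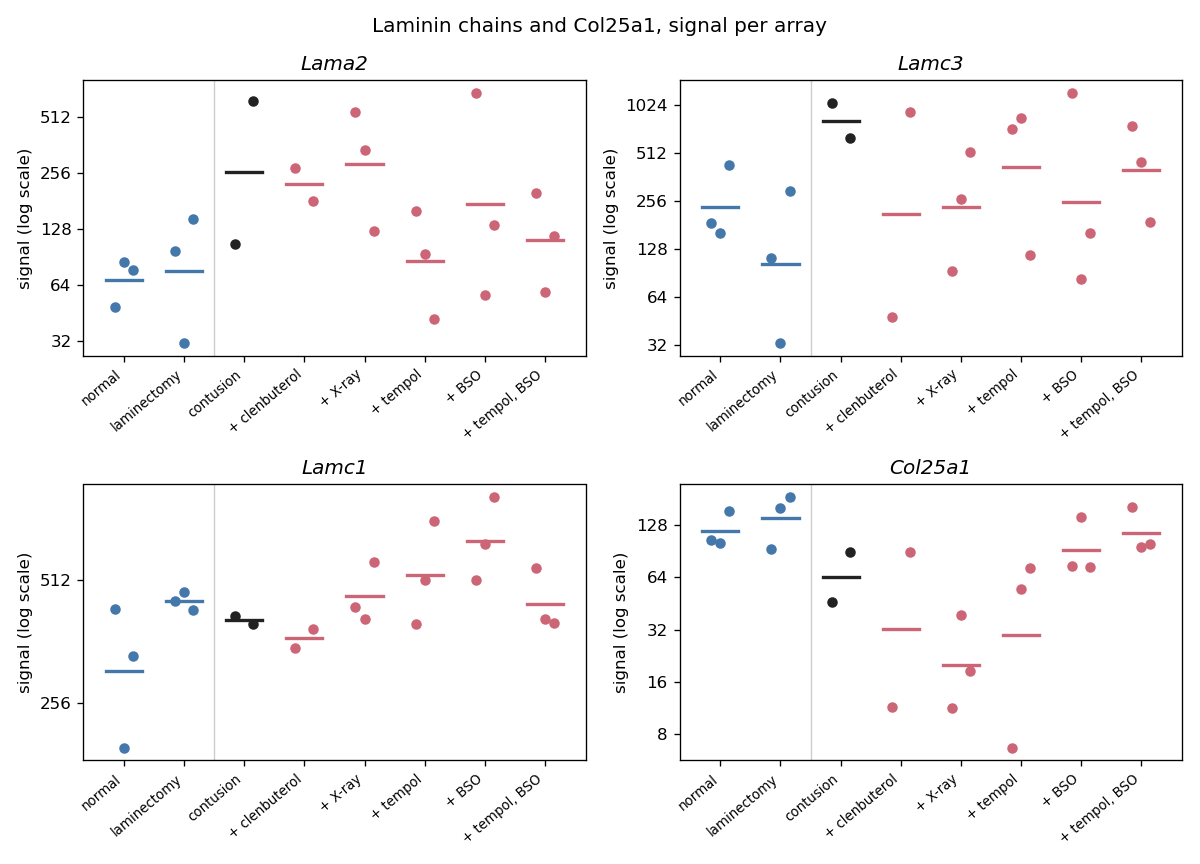
Signal per array (log axis) of the laminin chains Lama2, Lamc3 and Lamc1 and of Col25a1 in the 8 groups, coloured as uninjured (blue), contusion alone (black) and treated (red), with a bar at the mean of log2 values. Replicates of Lama2 and Lamc3 differ widely within groups, and Col25a1 is below 92.8, its lowest uninjured value, on 12 of the 16 contused arrays.

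Among the remaining chains Col25a1, a transmembrane collagen of nerve cells, had the smallest p. Its signal was 92.8 to 185 (median 129) in the uninjured arrays and 6.7 to 162 (median 72.8) in the contused ones. On 12 of the 16 contused arrays it was below the lowest uninjured value, and the 4 others were BSO 2 and all 3 arrays of tempol with BSO. The difference was -1.40 ± 0.47 (adjusted p = 0.269). Neuron markers were lower in the same contrast: 0 of 11 were higher and Nefl fell by 1.49 (adjusted p = 0.0324). Their summed signal was 17300 to 37945 in uninjured and 5362 to 19457 in contused cord. Against contusion alone, Col25a1 differed by -1.67 with X-ray and -1.10 with tempol, where 9 and 10 of the 11 markers were higher. Col25a1 was also lower with clenbuterol, where 6 of 11 were higher. With BSO and with tempol and BSO it differed by 0.51 and 0.85, where 8 and 9 were higher. The relation of the Col25a1 values to the neuron markers was not tested. In contused against uninjured cord, the fibril-associated Col14a1 differed by 1.02 ± 0.45 (adjusted p = 0.439). Col10a1, a short-chain collagen of cartilage, differed by 0.97 ± 0.44 (adjusted p = 0.45). The Col10a1 signal was 37.6, 118.6 and 149.4 in normal cord and 18.1, 15.7 and 49.8 after laminectomy, its lowest group mean. The contused arrays ran from 8.8 to 237.3 (median 115.85), a range that held all normal arrays. Col14a1 was 0.29 without both outlying arrays (adjusted p = 0.927) and 0.52 without laminectomy 2, where its signal was 55.1. With all arrays, a second Col14a1 probe set of similar mean log2 signal (8.87, against 9.02) gave 0.34. Lum, a small proteoglycan that regulates fibril diameter, differed by -0.65 ± 0.26 (adjusted p = 0.376). Its gene neighbour Dcn, another fibril-binding proteoglycan, differed by 0.11 ± 0.23 (95% interval -0.37 to 0.59), and Sparc, a collagen-binding glycoprotein, by -0.52 ± 0.44. Among 7 pairs of the 63 genes with no other protein-coding gene starting or ending between them on a rat chromosome, 4 pairs had the same sign (Col4a1 with Col4a2, Col4a5 with Col4a6, Col6a1 with Col6a2, and Col9a1 with Col19a1).

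**Figure D4:**
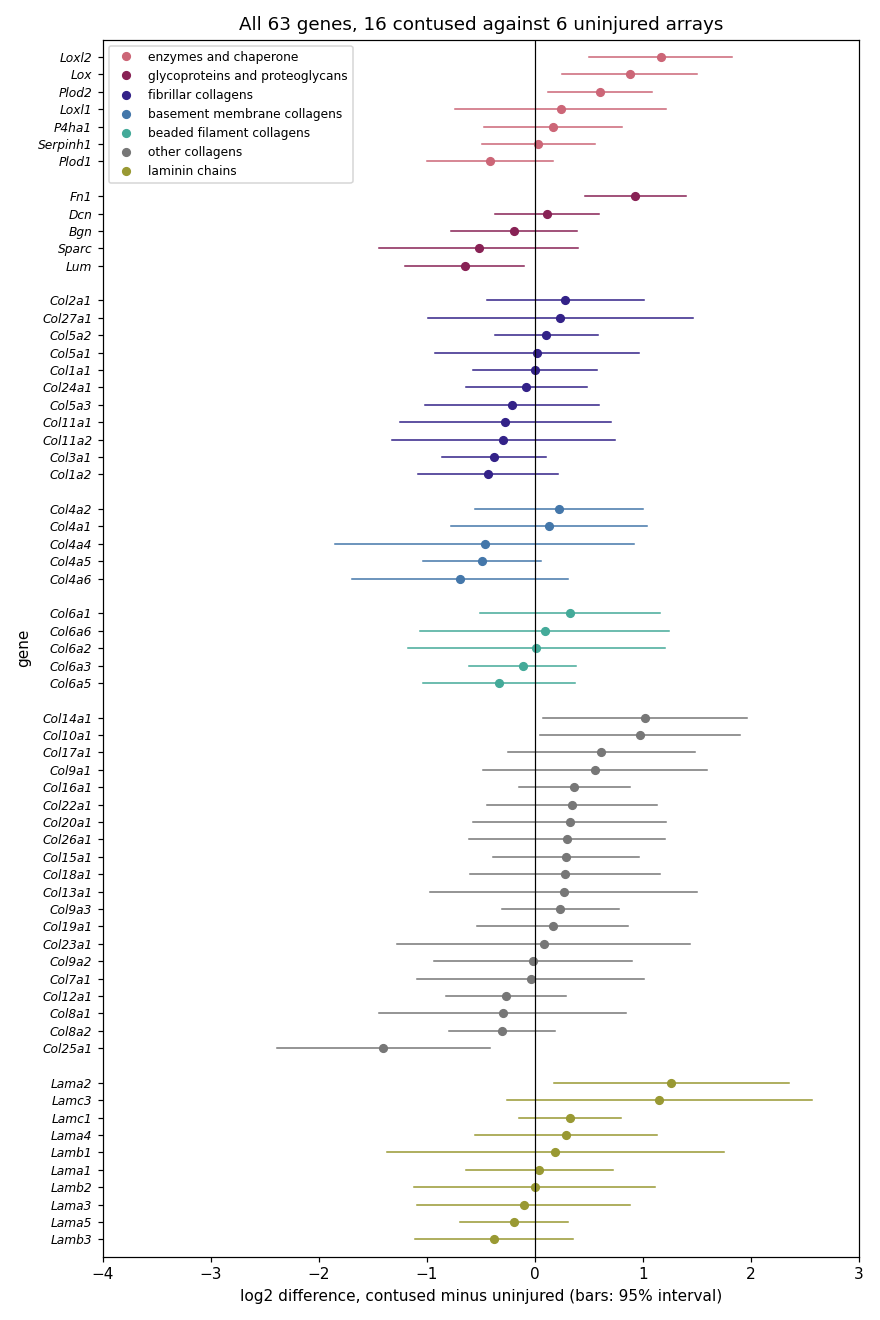
Log2 difference, contused minus uninjured, of all 63 genes by role, with bars for the 95% interval from the limma fit (16 contused and 6 uninjured arrays). Most intervals cross zero; those of Fn1, Loxl2, Lox, Plod2, Lama2, Col14a1 and Col10a1 lie above it and those of Col25a1 and Lum below it.

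Laminectomy alone was set against normal cord. Lox differed by 1.50 ± 0.50 (95% interval 0.45 to 2.56, adjusted p = 0.674) and Fn1 by 1.02 ± 0.38 (0.22 to 1.82, adjusted p = 0.773), and for both genes every laminectomy array was above every normal array. With both outlying arrays left out the differences were 1.87 and 0.95. Serpinh1 differed by 0.76 ± 0.42, Col10a1 by -1.85 ± 0.75, Col11a2, a minor fibrillar chain, by -1.70 ± 0.83 and Lama4, a chain of vessel walls, by -1.24 ± 0.68. Col11a2 was -0.81 without both outlying arrays, and Lama4 was -1.87 without normal 1 and -0.59 without normal 2. The sign was opposite in the second probe sets of Lama4 (1.52) and Serpinh1 (-0.08). Of the 63 genes, 3 had an unadjusted p under 0.05 (4.76%, beside 5.41% of all genes), 6 had arrays that did not overlap (9.52%, beside 9.05%) and 0 passed the adjusted threshold (0.0141% of all genes). The median was 0.21 with 39 of 63 higher, beside -0.01 and 49.3% over all genes, and over the 7 genes of collagen processing it was 0.68 with 6 of 7 higher. The median over the 63 genes was 0.05 without normal 1, the array on which they were lowest.

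Contusion alone was set against both uninjured groups. Against normal cord, Lox differed by 2.13 ± 0.56 (4.37-fold, adjusted p = 0.286), Fn1 by 1.52 ± 0.43 (2.87-fold, 0.338), Loxl2 by 1.82 ± 0.60 and Plod2 by 1.06 ± 0.44. Both contusion arrays were above all 3 normal arrays for these 4 genes. Col11a2 differed by -2.36 ± 0.93 and Col19a1, a fibril-associated chain, by 1.27 ± 0.63. In this contrast 5 of the 63 had an unadjusted p under 0.05 (7.94%, beside 7.41%), 16 did not overlap (25.4%, beside 24.2%), and 0 passed the adjusted threshold (0.0633% of all genes). Against laminectomy, Lox differed by 0.62 ± 0.56 (95% interval -0.56 to 1.80) and Fn1 by 0.51 ± 0.43 (-0.39 to 1.40). The second Lox probe set gave the opposite sign against laminectomy (-0.11). The smallest p there belonged to Col10a1 (2.60 ± 0.84), Lamc3 (2.99 ± 1.28), Col14a1 (1.69 ± 0.86), Loxl2 (1.14 ± 0.60), Lama2 (1.76 ± 0.98) and Col26a1 (1.45 ± 0.82). Without laminectomy 2, Col14a1 was 0.68, Col26a1 0.64 and Lama2 1.12. With all arrays, the second Col14a1 probe set gave 0.72. Lama2 was 0.48 without contusion 2 and 3.04 without contusion 1, and Col26a1 was 2.21 without laminectomy 1. At an unadjusted p under 0.05 stood 2 of the 63 (3.17%, beside 5.26%), 17 did not overlap (27%, beside 20.5%), and 0% of all genes passed the adjusted threshold.

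The 5 treatments were each set against contusion alone, so all 5 comparisons share the same 2 contusion arrays. None of the 63 genes passed the adjusted threshold under clenbuterol (0% of all genes), X-ray (0%), tempol (0%), BSO (0%) or tempol with BSO (0%). Unadjusted p under 0.05 was reached by 3 genes with clenbuterol (4.76%, beside 5.26%), 2 with X-ray (3.17%, beside 4.57%), 3 with tempol (4.76%, beside 2.83%), 2 with BSO (3.17%, beside 3.22%) and 0 with both agents (beside 3.56%). With clenbuterol, Col10a1 differed by -2.53 ± 0.92, Col5a1 by 2.17 ± 0.94 and Col18a1, the source of endostatin, by -1.92 ± 0.88. A second, dimmer Col18a1 probe set (mean log2 signal 4.40, against 8.15) gave the opposite sign (0.20). Col10a1 was -1.0 without clenbuterol 1 and -4.06 without clenbuterol 2. With X-ray, Col11a2 differed by 2.35 ± 0.93, Col6a6, a type VI chain, by 2.37 ± 1.05 and Col17a1, a transmembrane collagen of hemidesmosomes, by 1.62 ± 0.79. Without contusion 2, Col6a6 was 1.01 and Col17a1 0.80, and without contusion 1 they were 3.74 and 2.44. Col17a1 was 1.03 without X-ray 2. With tempol, the transmembrane collagen Col23a1 differed by 2.98 ± 1.23, Col6a1 by -1.68 ± 0.75 and Col22a1 by -1.58 ± 0.71. The interval lay within 1 log2 unit of zero for 0 of the 63 genes with clenbuterol, 1 with X-ray, 1 with tempol, 3 with BSO and 1 with both agents. The Col23a1 value rests on contusion 1 (signal 9.2, against 612 on contusion 2), and without that array it was -0.05 (6.01 without contusion 2). With BSO, the laminin beta-2 chain Lamb2 differed by 2.66 ± 1.01, Plod1 by -1.16 ± 0.53 and P4ha1 by -1.15 ± 0.58. Lamb2 read 149.2 on BSO 2 and 3.1 to 30.1 on every other array, and without BSO 2 its difference was 1.35 and that of P4ha1 -0.46. With tempol and BSO together, Col23a1 differed by 2.39 ± 1.23 (-0.63 without contusion 1 and 5.42 without contusion 2), Col12a1 by 0.88 ± 0.51 and Col17a1 by 1.15 ± 0.79. Without contusion 2, Col12a1 was 0.055 and Col17a1 0.34, and without contusion 1 they were 1.72 and 1.97. With the mean of its probe sets Col12a1 was -0.19, the dimmer probe sets giving -0.25 and -1.21. Fn1 under the 5 treatments differed by -0.44 ± 0.47 (clenbuterol), 0.37 ± 0.43 (X-ray), -0.46 ± 0.43 (tempol), -0.31 ± 0.43 (BSO) and 0.36 ± 0.43 (both agents).

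The interaction of tempol and BSO asks whether the effect of tempol differed with BSO present. Lamb2 (-3.86 ± 1.36), Plod1 (1.62 ± 0.71) and Col6a6 (-3.07 ± 1.40) had the smallest p, and 3 of the 63 were under an unadjusted p of 0.05 (4.76%, beside 3.26%), with 0% of all genes past the adjusted threshold. Lamb2 was -2.55 without BSO 2, and Col6a6 was -1.70 without contusion 2 and -1.75 without array 2 of tempol with BSO. Across all 8 groups the F test gave 6 of 63 at an unadjusted p under 0.05 (9.52%, beside 7.17%, and 0.0774% past the adjusted threshold), led by Fn1 (limma adjusted p = 0.369) and Col10a1 (0.527). Across the 5 treatments it gave 2 of 63 (3.17%, beside 5.22%, and 0% past the adjusted threshold), Col25a1 and Col10a1.

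**Figure D5:**
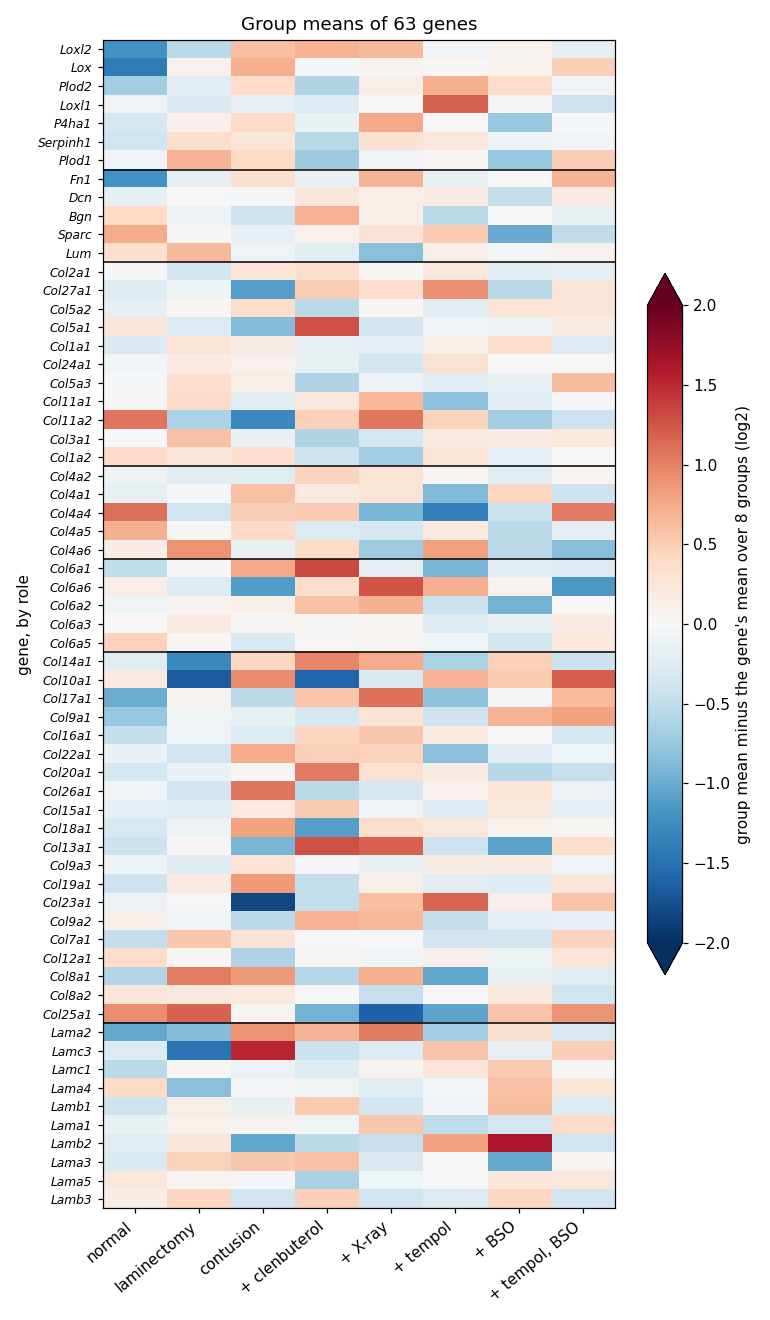
Mean log2 signal of each of the 63 genes in the 8 groups, less the gene's mean over the 8 groups (colour, limited to 2 log2 units either way), ordered by role. Fn1, Lox, Loxl2, Plod2, Col1a1 and Lamc1 are among the genes with their lowest group mean in normal cord.

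Genes that act with these proteins were counted in the contused against uninjured contrast from lists written with earlier results of these data known. Of 17 measured receptors of collagens and laminins 7 were higher and 0 passed the threshold. The smallest p belonged to Sdc1, a syndecan (1.40 ± 0.35, adjusted p = 0.115), Itgb1, the beta-1 integrin (1.09 ± 0.35), and Itga7, a laminin-binding integrin (-0.89 ± 0.33). Of 13 other processing genes 7 were higher and 0 passed, P4hb, the beta subunit of prolyl hydroxylase, having the smallest p (0.73 ± 0.24). Of 5 other basement membrane parts 3 were higher and 0 passed (Pxdn 0.66 ± 0.26, Agrn -0.52 ± 0.23, Hspg2 0.54 ± 0.25), and of 16 TGF-beta signalling genes 7 were higher and 0 passed (Ccn2 0.87 ± 0.33, Tgfb1 -1.24 ± 0.56, Tgfbr1 -0.49 ± 0.25). Fibroblast markers were higher for 6 of 11 and 0 passed, with Postn, a matrix protein of scars, at 1.80 ± 0.42 (adjusted p = 0.0902). Meningeal fibroblast markers were higher for 1 of 7, pericyte and smooth muscle markers for 4 of 10, endothelial markers for 4 of 10 and Schwann cell markers for 2 of 6, with 0 passing in these 4 lists.

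Macrophage markers were higher for 11 of 11, and 3 rose past the threshold: Arg1 (1.82 ± 0.28, adjusted p = 0.00427), Gpnmb (1.82 ± 0.29, 0.00585) and Cd14 (1.40 ± 0.25, 0.0146). The summed macrophage signal was 4013 to 4890.2 in normal cord, 7304 to 13266 after laminectomy and 7740 to 17070.3 in the contused arrays. It was lowest in normal cord, where Fn1 and Lox also had their lowest group means. The relation of the macrophage signal to the values of these genes was not tested. Astrocyte markers were higher for 2 of 9, and Slc4a4 and Aqp4 fell. Oligodendrocyte markers were higher for 0 of 9, and Ugt8 and Omg fell.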

How the data were processed

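Per the labels, RNA of perfused rat cord was purified with the RNeasy Lipid Tissue kit, biotin-labelled and hybridised. The submitters' processing notes name RMA. The deposited values are linear signal intensities scaled to 1 trimmed mean on each array, with no quantile normalization seen in them, so the authors' exact steps are not given in the sources used here. Signals were taken to log2, and 1 limma 3.58.1 fit (R 4.3.3) of 8 group means over 22 arrays gave every test, with Benjamini-Hochberg adjustment over 31042 probe sets (57 controls left out). Percentages of all genes use 1 probe set for each of 14217 genes; 436 probe sets with several symbols and 9780 with none were left out of them. The script was tested on simulated data. Genes and lists were chosen with earlier results of these data known. The text names the members with the smallest p in each comparison (6, or 3 for treatments and the interaction) and the 2 with the smallest p of each role; Col1a1, Col4a1, Col4a2, Lamc1, Dcn, Sparc, P4ha1, Loxl1 and other values of Fn1, Lox and Serpinh1 were added after values were seen. Replicate numbers did not pair arrays. The number of arrays limits precision. No pair of arrays held identical values.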

Additional observations from a re-analysis of the deposited data

How the results depend on the processing

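Alternatives were quantile normalization, log2 of signal plus 32, a filter on signal under 64, a fit of the compared groups only, the replicate block, both outlying arrays left out, each array left out, and averaging a gene's probe sets. The count of genes past the threshold in contused against uninjured cord was 0 in the reported fit, 1 with log2 of signal plus 32 (Fn1, adjusted p = 0.0404) and 2 with the mean of probe sets (Fn1, 0.042, and Lox, 0.0429), where fewer features are tested; the cause was otherwise not tested. In every other test the count was 0 under all alternatives run. With the replicate block the Fn1 difference was 0.92 (adjusted p = 0.15) and the count 0; the median correlation of deviations was -0.005 for arrays of the same number and 0.005 for others, so the numbers were not taken as pairs. Leaving out 1 array at a time moved the median over the 63 genes to 0.049 to 0.26 (laminectomy against normal), -0.066 to 0.16 (contusion against laminectomy), 0.14 to 0.40 (contusion against normal), -0.03 to 0.16 (contused against uninjured), -0.18 to 0.066 (clenbuterol) and 0.14 to 0.52 (interaction). Col23a1 turned from 2.98 to -0.048 (tempol) and from 2.39 to -0.63 (tempol with BSO) without contusion 1, ranges of -0.048 to 6.01 and -0.63 to 5.42. With the mean of probe sets Lama4 turned to 0.14 (laminectomy against normal), its probe sets giving -1.24 and 1.52. Col12a1 turned to -0.19 (tempol with BSO), its probe sets giving 0.88, -0.25 and -1.21. Without 1 array, the genes at an unadjusted p under 0.05 numbered 1 to 5 (laminectomy against normal), 1 to 5 (contusion against laminectomy), 3 to 7 (contusion against normal), 5 to 11 (contused against uninjured) and 0 to 6 (treatments). Of the values of named genes under alternatives, 1453 kept direction and side of the threshold, 4 turned direction and 3 passed the threshold. No named gene had passed it in the reported fit, so staying on that side says little. A value that shrank but kept its sign also counts as kept. With 2 or 3 arrays a group, the median standard error of the 63 genes was 0.73 for contusion against normal cord.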
